A study of Mus musculus with 2 samples.

Results

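Interleukin-1 (IL-1) family and inflammasome genes were described as a set of 9 genes, taken by symbol from the 27031 genes of the count table. The set held the ligand genes *Il1a*, *Il1b*, *Il1f9* and *Il18*, the antagonist and decoy genes *Il1rn*, *Il1r2* and *Il18bp*, the inflammasome sensor gene *Nlrp3* and the protease gene *Casp1*. All 9 had a column in the table and UMIs in both groups.

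The study compared CD45-positive immune cells from subcutaneous MC38 tumours, a mouse colorectal cancer line, between a control and a telmisartan-treated group. Telmisartan is an angiotensin II type-1 receptor blocker. Female C57BL/6 mice aged 6 to 8 weeks received 5 mg/kg telmisartan or vehicle by daily gavage from implantation, and tumours were taken on day 13. Cells of 5 mice were pooled in each group, the 2 pools received different Sample Tags, and both went through 1 BD Rhapsody capture. Each group was therefore 1 pool of animals with no replicate, told apart within a shared library by its Sample Tag, so no test between groups was possible, and every interval given here is a 95% interval that covers counting error only.

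Of 20726 putative cells, 8969 were kept, 4535 from the control and 4434 from the telmisartan-treated group. Depth differed between the groups, with a median of 8689 unique molecular identifiers (UMIs) per cell and 41591125 UMIs in all in the control group against 6357.5 and 30921742 in the telmisartan-treated group. Levels are therefore given as CPM, counts per 1e6 UMIs of the same cells, and differences as log2 of telmisartan-treated over control CPM. The cells fell into 13 clusters, which were named from fixed marker lists as macrophage-like (8048 cells), dendritic-like (664), T-like (185) and neutrophil-like (72).

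The sort label was checked with marker genes. *Ptprc*, which encodes CD45, was detected in every class, and the 4 genes marking other tissue (*Epcam*, *Krt8*, *Col1a1* and *Col3a1*) summed to 6.45 CPM in control and 9.59 CPM in telmisartan-treated macrophage-like cells. Their sum was 46.9 and 19.9 CPM in dendritic-like cells, where *Epcam* is a leading gene of cluster 7, 18.3 and 17.7 CPM in T-like cells, and 10.4 and 42.3 CPM in neutrophil-like cells from 1 and 2 UMIs. The 11 macrophage or monocyte markers, led by *Lyz2*, summed to 18003 and 18175 CPM in macrophage-like cells, and the 9 T-cell markers to 13.2 and 15.2 CPM. All 9 T-cell markers stood above the other clusters in both T-like clusters.

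IL-1 alpha and IL-1 beta bind the same receptor and start an inflammatory programme through MyD88 and NF-kB, whereas the receptor antagonist blocks that receptor and the decoy receptor binds ligand without signalling. IL-1 beta and IL-18 are made as inactive precursors, and an inflammasome, in which a sensor such as NLRP3 assembles with the adaptor ASC, activates caspase-1 to cleave them. Tumour macrophages and neutrophils are known sources of IL-1, and RNA levels say nothing of how much precursor is cleaved or released.

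The distribution of the ligand genes across cell populations was examined separately within each group. *Il1b*, the ligand that needs cleavage, was highest in the neutrophil-like cluster in both groups, followed by macrophage subclusters 5 and 1. *Il1a*, whose product is active without caspase-1, was highest in macrophage subcluster 5, followed by the neutrophil-like cluster and subcluster 1. Subclusters are numbered by size, and are led by *Tnfsf15*, *Ereg* and *Areg* (subcluster 1), *Cxcl9* and *Ccl24* (2), *Folr2*, *Cbr2* and *Ccl8* (3), *Ifit3* and *Rsad2* (4), *Serpinb2*, *Il6* and *Cxcl3* (5), *Top2a* and other mitotic genes (6) and *Mcm5* and other S-phase genes (7).

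*Il1b* ran in the control group from 15300 CPM in neutrophil-like cells through 5538 CPM in subcluster 5, 5149 in subcluster 1, 3534 in subcluster 4 and 3198 in dendritic-like cluster 7 to 844 in subcluster 3 and 220.0 in T-like cluster 8. The same 5 populations came first in the telmisartan-treated group, at 9817, 5530, 5304, 4614 and 4037 CPM, with no overlap between neighbouring intervals among them in either group. Further down, overlapping neighbours in the control group were dendritic-like clusters 9 and 10, and subcluster 6 and T-like cluster 12. In the telmisartan-treated group they were subclusters 7 and 2, and subcluster 6 with dendritic-like clusters 9 and 10. *Il1a* spanned 1860 CPM in subcluster 5 to 11.2 CPM in dendritic-like cluster 10 in the control group, and in the telmisartan-treated group 1380 CPM in subcluster 5 to 7.75 CPM in dendritic-like cluster 9. In the control group the *Il1a* interval of the neutrophil-like cluster (1408 CPM) overlapped that of subcluster 1 (1253 CPM).

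The antagonist genes differed from each other in distribution. As for *Il1b*, the highest populations of *Il1rn* were the neutrophil-like cluster and then subcluster 5 in both groups. *Il1rn*, the receptor antagonist gene, was highest in neutrophil-like cells at 3437 CPM in control and 4379 CPM in telmisartan-treated cells, and subcluster 5 came next at 1327 and 1432 CPM, overlapping subcluster 1 in the control group. *Il1r2*, the decoy receptor gene, was instead highest in dendritic-like cluster 7, also the cluster with the highest *H2-Eb1* level and counted as macrophage-like in an alternative, at 1833 and 2344 CPM, with the neutrophil-like cluster next at 1770 and 1629 CPM and an overlapping interval in the control group. It was lowest in subcluster 3 at 31.4 and 48.6 CPM. *Il18bp*, whose product neutralises IL-18, had its highest level in neutrophil-like cells from only 6 UMIs in each group, then in dendritic-like cluster 9 at 52.0 and 54.2 CPM (20 and 14 UMIs), and it stood at 37.4 and 37.6 CPM in subcluster 2. Its neighbours in the order of levels overlapped throughout the control group.

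Among the remaining members, *Nlrp3* followed the order of *Il1b* at the top, with 3427 and 3300 CPM in neutrophil-like cells, 1144 and 1591 in subcluster 5 and 895 and 1132 in subcluster 1. *Casp1* was spread more evenly among macrophages, from 104 CPM in subcluster 2 to 64.2 in subcluster 5 in the control group. It was lower in dendritic-like cluster 9, at 23.4 CPM in control and 15.5 CPM in telmisartan-treated cells. All neighbouring intervals in the control group overlapped, but those of the highest and lowest populations did not. No *Casp1* UMI was found in the 48 control neutrophil-like cells, which allows a level of up to 31.1 CPM, and 3 were found in the 24 telmisartan-treated ones. *Il18* was low everywhere, at 54.6 and 51.8 CPM in subcluster 4 and 51.8 and 127 CPM in the neutrophil-like cluster, the latter from 5 and 6 UMIs with intervals that overlap those of subcluster 4. It was 3.99 CPM in control dendritic-like cluster 7. *Il1f9*, which encodes IL-36 gamma, had 183 of its 226 UMIs in the neutrophil-like cluster, and none in dendritic-like or T-like cells.

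**Figure D1:**
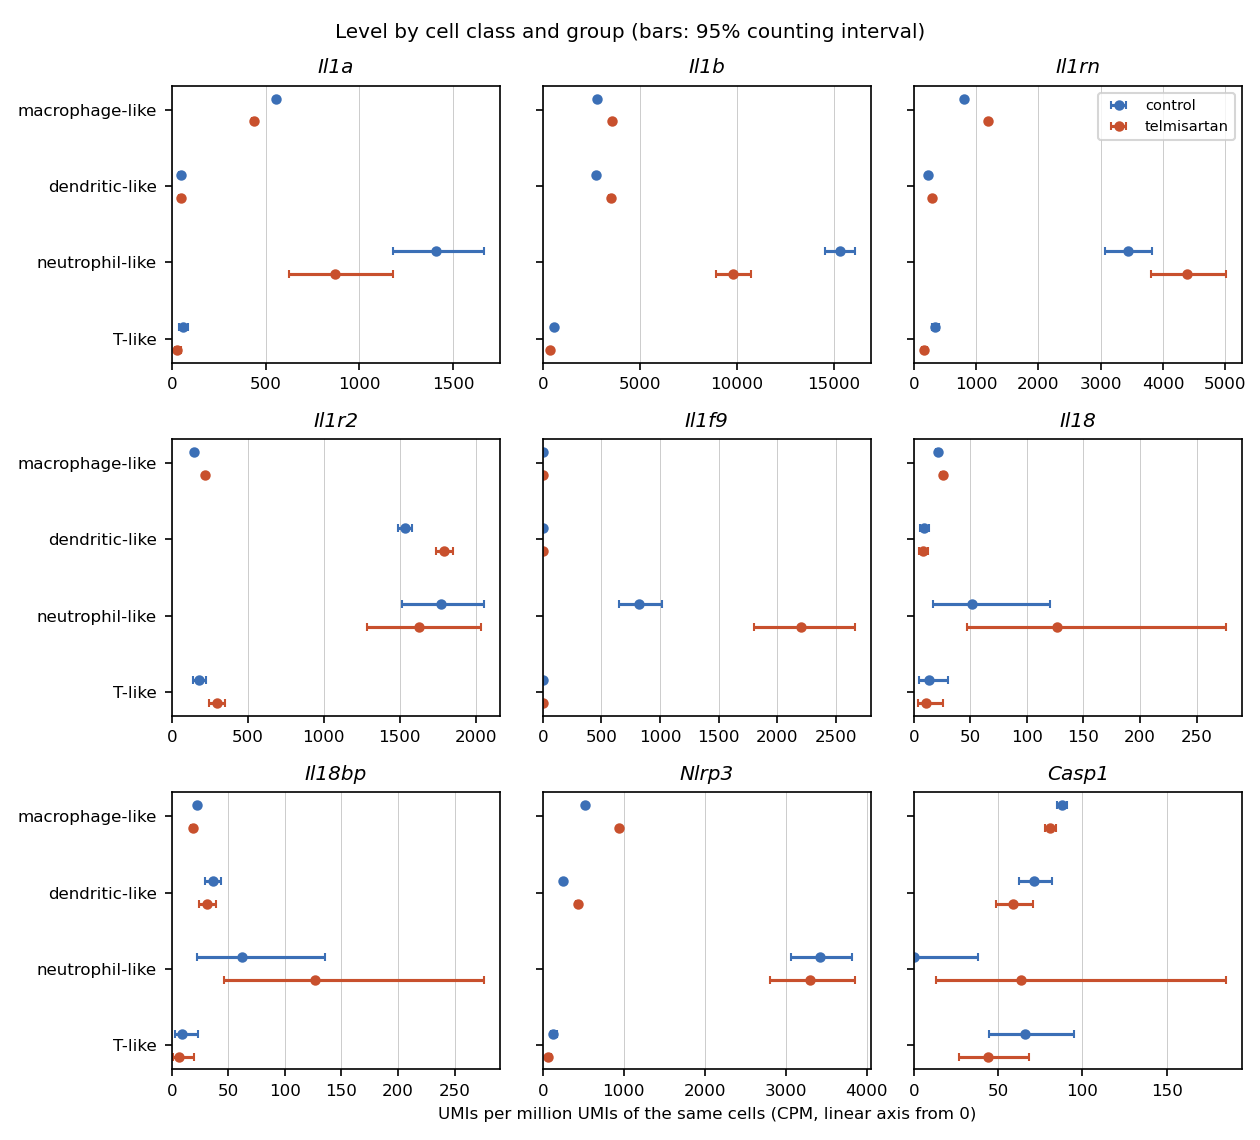
Level of each member in CPM (linear axis from 0) in the 4 cell classes of the control (blue) and telmisartan-treated (orange) group, with bars showing the 95% counting interval. *Nlrp3* lies at 522 and 945 CPM in macrophage-like cells, while *Il1r2* lies near 1534 and 1793 CPM in dendritic-like cells against 146 and 220.3 CPM in macrophage-like cells.

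Because 6 of the 9 members (all except *Il18*, *Il18bp* and *Casp1*) were among the 2000 variable genes used to cluster the cells, these distributions are descriptions of the clusters and no test of them. *Il1f9* is itself a leading gene of the neutrophil-like cluster and *Il1r2* of subcluster 1. When each cell was thinned to 1000 UMIs, 8 of the 9 members kept their highest population over both groups together, the exception being *Il18* with few UMIs.

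In macrophage-like cells, the class with most cells, *Nlrp3* and *Il1r2* were higher with telmisartan by over 1.5-fold, and *Il1rn* and *Il1b* were higher by less. *Il1a* was lower, at 557 CPM in control and 438 CPM in telmisartan-treated cells. The class held 4049 control cells (median 8977 UMIs) and 3999 telmisartan-treated cells (median 6463 UMIs). Subcluster 2 held most control cells, 1280 of them, and subcluster 1 most telmisartan-treated cells, 1152. Only 336 telmisartan-treated cells fell in subcluster 2, so it consists mostly of control cells, and whether it is a cell type or a feature of that pool cannot be told apart.

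Of the 9 members, 8 had at least 100 UMIs in this class, and *Il1f9* did not. Of these 8, 2 (*Nlrp3* and *Il1r2*) were past 1.5-fold higher, against 4.78% of the 11073 genes compared, and 0 were past it lower, against 2.23%. *Il1r2* lay just past that limit at log2 0.59 and *Il1rn* just short of it at 0.55. The count of 2 came to 1 under 8 alternative settings, in each of which *Nlrp3* stayed past the limit and *Il1r2* did not, and to 0 without scaling to depth and with the mean over cells of ln(1 + CPM / 100), called the ln scale. The median log2 was 0.32 over the 8 members and -0.05 over all genes compared.

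The scale of measurement bears on every value. Leaving out the scaling to depth shifted all genes by the same amount, to a median of -0.45, whereas on the ln scale the median was -0.17 and genes shifted by differing amounts. Relative to these medians, *Nlrp3* stood at 0.90 and 0.61, *Il1r2* at 0.64 and 0.61, *Il1rn* at 0.60 and 0.40 and *Il1b* at 0.40 and 0.31. *Il1a* stood at -0.30 relative to the median without scaling but at 0.08 on the ln scale, which turns its direction.

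For *Il1b* the macrophage-like class held 105900 (control) and 101023 (telmisartan-treated) UMIs, or 2777 and 3563 CPM, a log2 difference of 0.36 (interval 0.35 to 0.37) that came to 0.17 when both groups were weighted to the control shares of the subclusters and to -0.05 as UMIs per cell without scaling. Within subclusters it was higher in 6 of 7 in CPM, from -0.00 in subcluster 5 to 0.79 in subcluster 6, yet in 4 of 7 when each cell was thinned and in 3 of 7 without scaling. In subcluster 6, the mitotic cells, it stood at 1439 CPM in control and 2481 CPM in telmisartan-treated cells. The difference in the class as a whole was thus larger than in 5 of the 7 subclusters and smaller than in subclusters 4 and 6.

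*Il1a* had the opposite sign in CPM. Its log2 difference was -0.35 (interval -0.38 to -0.31) and came to -0.60 with the subclusters weighted to the control shares, and it was negative under all 15 alternatives, although positive relative to the median of all genes on the ln scale (0.08). It was lower in 6 of 7 subclusters in CPM, with the interval below 0 in 4, in 6 of 7 without scaling and in 5 of 7 after thinning or on the ln scale. The largest difference was in subcluster 1, where *Il1a* stood at 1253 CPM in control and 522 CPM in telmisartan-treated cells (log2 -1.26, interval -1.31 to -1.21). Subcluster 7 had 443 and 228 CPM, whereas in subcluster 6 the order was reversed at 202 and 254 CPM.

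The other ligands had few UMIs. For *Il18* there were 820 and 736 UMIs, or 21.5 and 26.0 CPM (log2 0.27, interval 0.13 to 0.42), and it was lower without scaling at -0.14. It was higher in 4 of 7 subclusters in CPM and in 3 of 7 without scaling, and the CPM interval lay above 0 in 1 of them. *Il1f9* had 16 and 27 UMIs, or 0.420 and 0.952 CPM, too few to compare in macrophages.

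Both IL-1 antagonist genes were higher with telmisartan in CPM and under all 15 alternatives, and *Il18bp* was lower under 14 of the 15. *Il1rn* stood at 810 CPM in control and 1188 CPM in telmisartan-treated macrophage-like cells (log2 0.55, interval 0.53 to 0.57), with 0.55 also under the weighted shares and 0.14 without scaling. It was higher in 7 of 7 subclusters in CPM, 6 of 7 on the ln scale and 5 of 7 without scaling. The subclusters fell into 2 sets, with log2 0.02 in subcluster 1 (an interval that includes 0) and 0.11 in subcluster 5, where the gene was already high in the control group, and 0.71 to 0.90 in the other 5. In the telmisartan-treated group the levels of subclusters 1 to 4 lay between 1211 and 1315 CPM, against 662 to 1269 CPM in the control group. Over all 7 subclusters the levels ran from 724 to 1432 CPM in the telmisartan-treated group and from 443 to 1327 CPM in the control group.

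*Il1r2* stood at 146 CPM in control and 220.3 CPM in telmisartan-treated macrophage-like cells (log2 0.59, interval 0.54 to 0.64), and at 0.46 with weighted shares and 0.18 without scaling. It was higher in 6 of 7 subclusters, the exception being the S-phase subcluster 7 at 193 and 173 CPM with an interval that includes 0, and in 5 of 7 without scaling. The largest difference was in subcluster 2, at 122 and 221 CPM (log2 0.86). *Il18bp* stood at 22.7 and 18.4 CPM (log2 -0.30, interval -0.46 to -0.14), but at 0.01 with weighted shares. Its subclusters ran from -1.13 in subcluster 6 to 1.23 in subcluster 5, so no direction held across them.

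The inflammasome genes differed from each other. *Nlrp3*, the sensor gene, held 19920 UMIs of the control class and 26800 of the telmisartan-treated class, the shallower one, or 522 and 945 CPM (log2 0.86, interval 0.83 to 0.88). It ranked 226 from the top of 11073 genes ordered from the highest log2 difference. The difference was 0.66 with weighted shares, and 0.45 both without scaling and on the ln scale. *Casp1* stood at 87.9 and 81.1 CPM (log2 -0.12, interval -0.19 to -0.04), and at 0.05 with weighted shares.

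*Nlrp3* was higher in 7 of 7 subclusters with every interval above 0, and also in 7 of 7 after thinning and on the ln scale, while without scaling it was lower in subcluster 1 (-0.08). The smallest difference in CPM was in subcluster 1, at 895 and 1132 CPM (log2 0.34), and the largest in subcluster 6, at 317 and 656 CPM (log2 interval 0.96 to 1.14). *Casp1* was higher in 4 of 7 subclusters in CPM and in 1 of 7 without scaling, within -0.25 to 0.33. The share of macrophage-like cells with at least 1 *Nlrp3* UMI was 79.9% in control and 85.8% in telmisartan-treated cells, and 34.1% and 51.1% after thinning to 1000 UMIs, which left out 45 and 72 shallower cells. T-like cells, for comparison, had 26.4% and 18.6% before thinning at medians of 3912 and 3001 UMIs, and 7.35% and 6.80% after it, with 4 and 10 cells left out.

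**Figure D2:**
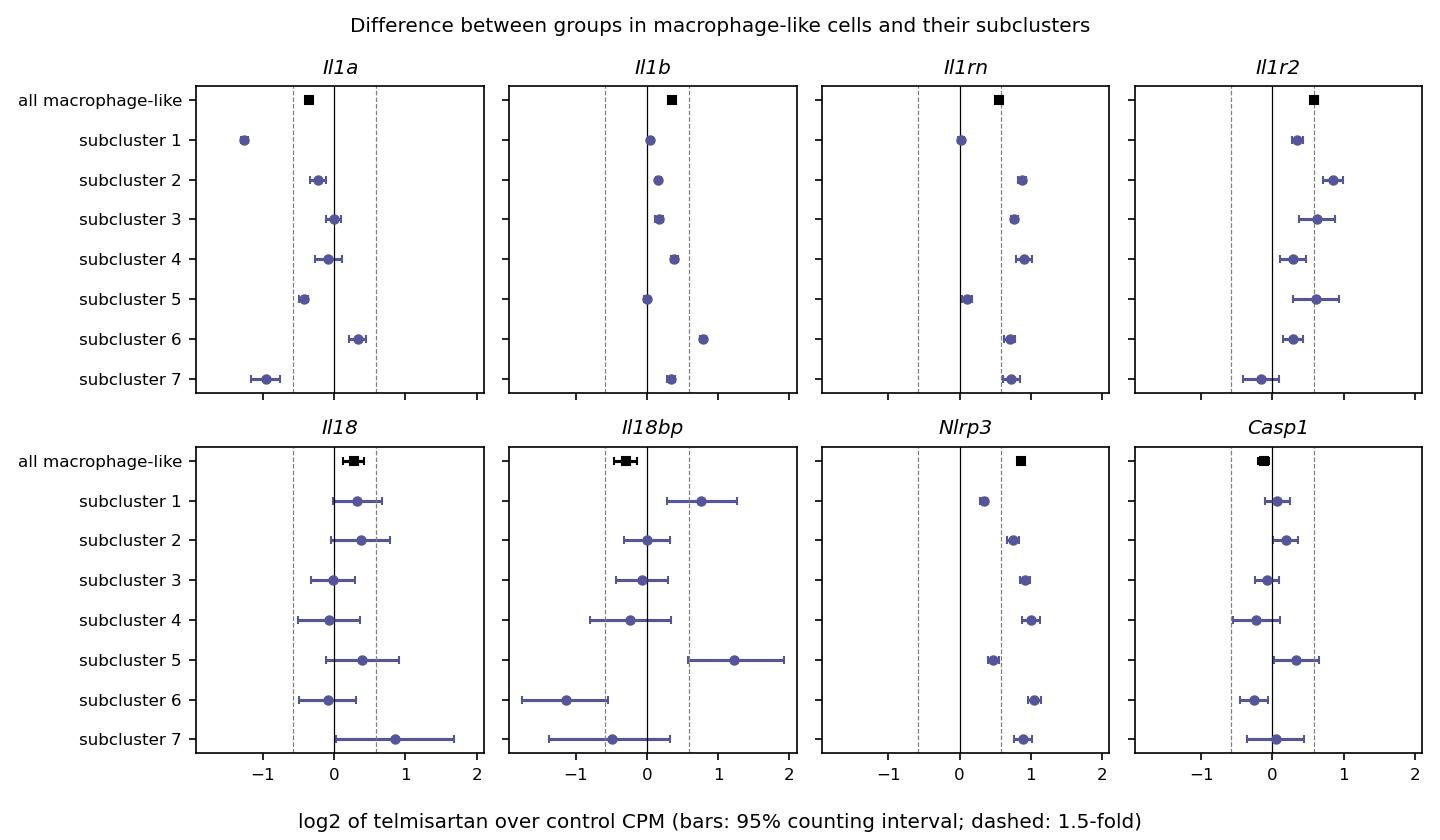
Log2 of telmisartan-treated over control CPM for 8 members in all macrophage-like cells (squares) and in each of the 7 subclusters (circles), with bars for the 95% counting interval and dashed lines at 1.5-fold. *Nlrp3* lies above 0 in 7 of 7 subclusters in CPM (6 of 7 without scaling), and *Il1a* lies furthest left in subcluster 1 at -1.26 (lower there under every scale).

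Ratios of UMIs between a pair of genes within the same cells do not depend on the depth of those cells. *Il1a* UMIs per *Il1b* UMI were 0.200 (interval 0.198 to 0.203) in control and 0.123 (0.121 to 0.125) in telmisartan-treated macrophage-like cells, a log2 difference of -0.71. The ratio was lower with telmisartan in 7 of 7 subclusters, with every interval below 0, from -1.31 in subcluster 1 to -0.17 in subcluster 3. In subcluster 1 it was 0.243 in control and 0.0985 in telmisartan-treated cells. The balance between both IL-1 ligand genes thus differed in one direction in each macrophage subcluster, with *Il1b* a larger part of their sum in the telmisartan-treated pool.

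*Il1rn* UMIs per *Il1b* UMI, the balance of antagonist and ligand, were 0.292 in control and 0.333 in telmisartan-treated macrophage-like cells (log2 0.19, interval 0.17 to 0.22). Subclusters 1 and 6 had log2 differences of -0.03 and -0.08 with intervals that include 0, and the other 5 had positive ones. The *Folr2* and *Cbr2* subcluster 3 stood apart in both groups with 0.843 and 1.28 *Il1rn* UMIs per *Il1b* UMI, and subcluster 2 had 0.273 in control and 0.448 in telmisartan-treated cells. *Il1r2* per *Il1b* was 0.0527 and 0.0618, but lower with telmisartan in the cycling subclusters 6 (0.103 and 0.0732) and 7 (0.0824 and 0.0584), and in subcluster 4 by a difference whose interval includes 0. *Il18bp* per *Il18* was 1.06 and 0.711, a log2 difference of -0.57 with an interval of -0.78 to -0.36. That difference did not hold across subclusters, with the interval below 0 in subclusters 6 and 7, above 0 in subcluster 5 (0.84, interval 0.03 to 1.64) and including 0 in the other 4.

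**Figure D3:**
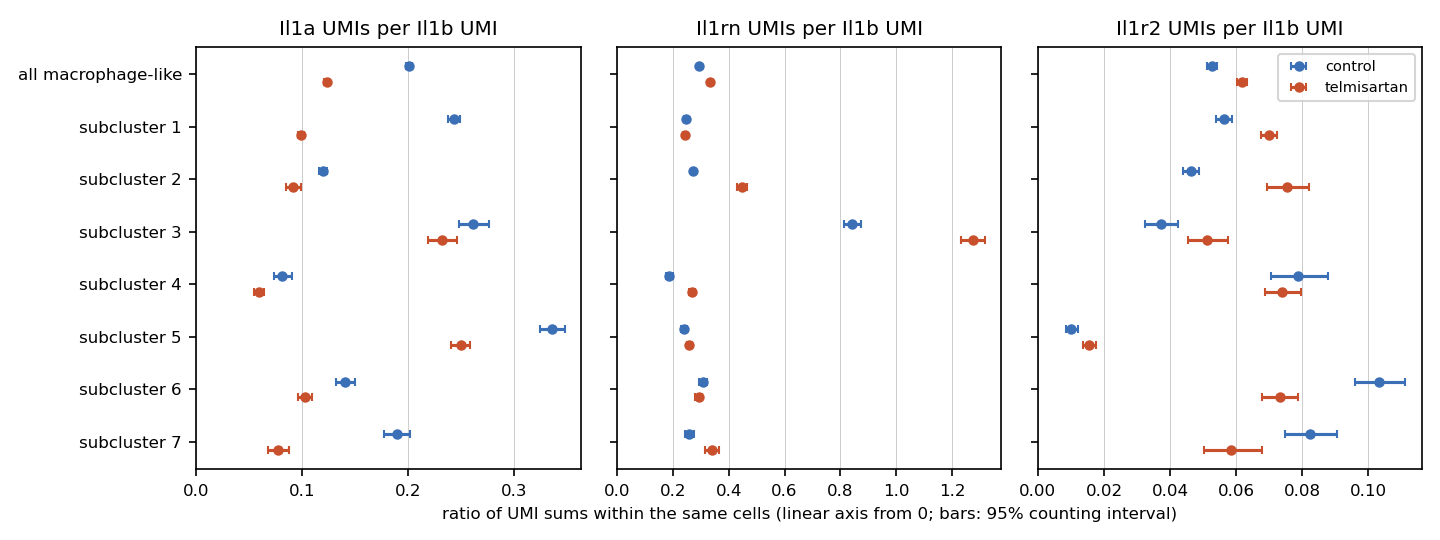
UMIs of *Il1a*, *Il1rn* and *Il1r2* per UMI of *Il1b* within the same cells (linear axis from 0), for all macrophage-like cells and the 7 subclusters of the control (blue) and telmisartan-treated (orange) group, with 95% counting intervals. The *Il1a* ratio is lower with telmisartan in 7 of 7 subclusters, and the *Il1rn* ratio reaches 0.843 and 1.28 in subcluster 3.

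Co-occurrence within cells was described after thinning each macrophage-like cell to 1000 UMIs. In the control group 2618 cells had an *Il1b* UMI among the 1000 drawn and 1386 had none, and in the telmisartan-treated group 2801 and 1126. At full depth 3524 control and 3521 telmisartan-treated cells held *Il1b*, so most cells counted as without it held an *Il1b* UMI before thinning. *Il1b* UMIs were also found in 40.3% of control and 40.7% of telmisartan-treated T-like cells. Whether such UMIs of a macrophage-like cell were its own or carried in was not tested. *Il1a* averaged 0.781 UMIs per cell with *Il1b* and 0.135 without in the control group, a 5.79-fold difference. In the telmisartan-treated group the values were 0.551 and 0.169 (3.26-fold). The share of cells with a drawn *Il1b* UMI was 65.4% and 71.3%, so the split holds different cells in each group, and its values were not compared between groups. It was made over all macrophage-like cells and not within subclusters. The part of subcluster membership in the folds given here and below was not tested.

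*Nlrp3* averaged 0.667 UMIs per cell with *Il1b* and 0.310 without in the control group, and 1.14 and 0.568 in the telmisartan-treated group, folds of 2.16 and 2.00 between the kinds of cell. *Il1r2* was 3.02-fold and 2.91-fold higher in cells with *Il1b*, and *Il1rn* 1.52-fold and 1.74-fold. *Casp1* was nearly level between them at 0.939-fold and 0.848-fold.

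The dendritic-like class held 366 control and 298 telmisartan-treated cells, and cluster 7, led by *Cd209a*, held most of it in both groups. *Nlrp3* and *Il1b* were higher with telmisartan here too, in CPM and under each of the 4 other scales computed. Of the 9 members, 7 had at least 100 UMIs, and 1 of these (*Nlrp3*) was past 1.5-fold higher against 3.69% of 5832 genes, and 0 were past it lower against 3.34%. *Il1f9* had no UMI and *Il18* had 26 and 16, too few to compare.

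*Nlrp3* stood at 253 CPM in control and 432 CPM in telmisartan-treated dendritic-like cells (log2 0.77, interval 0.63 to 0.92), and at 247 and 401 CPM after thinning. *Il1b* stood at 2758 and 3497 CPM (log2 0.34, interval 0.30 to 0.39). *Il1r2* stood at 1534 and 1793 CPM (0.23, interval 0.16 to 0.29), and at 0.02 without scaling, with 0.35 in cluster 7 and -0.32 in cluster 10, which is led by *Xcr1* and *Clec9a*. *Il1a* was low, at 47.9 and 47.0 CPM (log2 -0.03, but 0.40 after thinning), and *Casp1* (71.5 and 59.1 CPM) and *Il18bp* (36.3 and 31.0 CPM) had intervals of the difference that include 0. If all *Lyz2* of this class were carried in from macrophage-like cells, 229 and 117 *Il1a* UMIs would come with it. Found were 140 in control and 97 in telmisartan-treated cells. For *Il1rn*, 333 and 318 would come with it, and 659 and 615 were found. *Il1b*, *Il1r2*, *Il18bp*, *Nlrp3* and *Casp1* were also above their carried-in counts in both groups.

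*Il1rn* stood at 226 and 298 CPM over the dendritic-like class (log2 0.40, and 1.07 after thinning) and differed between its clusters. In cluster 9, led by *Fscn1* and *Ccr7*, it stood at 192 CPM in 61 control cells and 775 CPM in 48 telmisartan-treated cells (log2 2.01, interval 1.62 to 2.42), and the difference kept its sign under each scale, from 1.21 to 2.35. Without the highest cell of each group the levels were 157 and 695 CPM. Clusters 7 and 10 had log2 differences of 0.06 and -0.37, both with intervals that include 0, and cluster 7 had 0.63 after thinning and -0.24 without scaling. *Il1r2* in cluster 9 was lower in CPM (650 and 500) but higher after thinning (450.0 and 522), and 1 control cell held 90 of its 250 UMIs.

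The neutrophil-like cluster was small, with 48 control and 24 telmisartan-treated cells at medians of 1730 and 1796 UMIs. Its 6 neutrophil markers summed to 17215 CPM in control and 9224 CPM in telmisartan-treated cells, and the 11 macrophage or monocyte markers to 3851 and 1671 CPM. The part of these differences in the values here was not tested. *Il1b* was lower with telmisartan, at 15300 and 9817 CPM (log2 -0.64, interval -0.79 to -0.49), and lower under each of the 4 other scales. Without the highest cell of each group it stood at 15597 and 8537 CPM.

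*Il1f9* had the other sign, at 818 CPM in control and 2200.3 CPM in telmisartan-treated neutrophil-like cells, with 79 and 104 UMIs (log2 1.43, and 0.47 on the ln scale), and is itself a gene that sets this cluster apart. A lone telmisartan-treated cell held 42 of the 104, and without the highest cell of each group the levels were 712 and 1375 CPM. *Il1rn* was 3437 and 4379 CPM (log2 0.35, interval 0.09 to 0.60), and *Il1rn* per *Il1b* was 0.225 and 0.446. *Nlrp3* (-0.05) and *Il1r2* (-0.12, but 0.27 on the ln scale) had intervals that include 0. *Il1a* was 1408 and 867 CPM (-0.70), but 0.01 on the ln scale, and 1 telmisartan-treated cell held 18 of its 41 UMIs.

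T-like cells were compared with what RNA from macrophage-like cells alone could give them. Their level of *Lyz2* was 24.0% of that in macrophage-like cells in the control and 16.7% in the telmisartan-treated group. If all that *Lyz2* were carried in, 291 and 270 *Il1b* UMIs would come with it, and 254 and 159 were found, so *Il1b* was below that count. *Il1a* was below it too, with 26 and 13 found against 58.4 and 33.1. *Il1r2* was above it, with 15.3 and 16.7 UMIs against 78 (interval 61.7 to 97.3) and 134 (112 to 159) found. RNA from dendritic-like cells, where *Il1r2* is higher, was not counted. The 9 dendritic markers summed to 93.7 and 199 CPM in T-like cells, with *Kit* and *Ccr7* the most abundant in turn. In dendritic-like cells they summed to 3296 CPM in the control and 2761 CPM in the telmisartan-treated group. The source of the *Il1r2* UMIs in T-like cells was not tested.

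*Il1r2* was highest among T-like cells in cluster 12, which is led by *Foxp3*, at 254 CPM in 22 control and 559 CPM in 21 telmisartan-treated cells, and at 161 and 385 CPM without the highest cell of each group. A lone control cell with 18399 UMIs held 134 of the 188 *Il1b* UMIs, 19 of the 22 *Il1a* UMIs and 53 of the 123 *Il1rn* UMIs of that cluster. Without the highest cell of each group, *Il1b* there was 453 and 403 CPM. *Casp1* was also above the carried-in count, at 29 UMIs against 9.22 in the control and 20 against 6.14 in the telmisartan-treated group. *Il1rn* had 152 UMIs against 84.9 in the control, but 53 of them lay in the lone cell named above, and 75 against 89.9 in the telmisartan-treated group. *Nlrp3* was near it in the control (58 against 54.8) and below it in the telmisartan-treated group (31 against 71.5).

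The other genes of the pathway were taken from a fixed list of 56, of which 51 had a column and 39 had at least 100 UMIs in macrophage-like cells. Of the 39, 17 were higher and 22 lower with telmisartan, with a median log2 of -0.06, close to that of all genes. Past 1.5-fold in CPM were 2 higher and 3 lower of the 39, against 4.78% and 2.23% of all 11073 genes, and other scales were not computed for these genes. *Irak2*, a kinase of IL-1 receptor signalling, stood at 170 and 260 CPM (0.62), and *Ninj1*, which ruptures the membrane in pyroptosis, at 56.7 and 89.9 CPM (0.66). The 3 lower were *Nlrp1a*, another sensor gene (8.57 and 4.30 CPM, -0.99), the IL-36 receptor gene *Il1rl2* (703 and 340 UMIs, -0.62) and the IL-33 receptor gene *Il1rl1* (1.97 and 1.20 CPM, -0.71), the last with 109 UMIs only and named after its value was seen.

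By role, the receptor with most UMIs was *Il1rap*, the shared accessory chain, with 827 and 460 UMIs (21.7 and 16.2 CPM, -0.42). *Pycard*, which encodes the adaptor ASC, stood at 150 and 138 CPM (-0.13), and *Casp8*, the most abundant other caspase gene, at 152 and 171 CPM (0.17). *Il1r1*, the signalling receptor of IL-1, had 92 and 80 UMIs in all macrophage-like cells (2.41 and 2.82 CPM). None of the other ligand genes on the list reached 100 UMIs. All 10 signalling genes did, and 1 of them (*Irak2*) was past 1.5-fold.

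Genes most like each member were named by Pearson r of log2(CPM + 1) over 13 populations of both groups together, among 8642 genes. The populations share 1 capture and differ in depth, and r is a description only. *Nlrp3* was most like *Slc16a3* (0.989), *Lilr4b* (0.969) and *Fth1* (0.966), and *Il1a* was most like *Sod2* (0.971), *Kcnj2* (0.967) and *Cd14* (0.964). *Il1b* was closest to *Smim3* (0.931), *Gsap* (0.925) and *Syk* (0.922), and *Il1rn* to *Neu1* (0.984), *Tmem63a* (0.944) and *Plekhg1* (0.944).

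The likeness of the remaining members was as follows. *Il1r2* had *Rin3* at 0.930, ahead of *Mical1* (0.828) and *Coq10b* (0.819). *Il1f9* had *S100a9* (0.977), *Napa* (0.976) and *Msra* (0.966), the neutrophil-like cluster holding most of its UMIs. *Il18* had *C2cd2* (0.929), *Cux1* (0.876) and *Gng12* (0.863), *Il18bp* had *Gdap10* (0.885), and *Casp1* had *Snx5* (0.971), *Ms4a6c* (0.960) and *Manf* (0.944).

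The positions of the members were read for genome build GRCm38. Chromosome 2 held 4 members, with *Il1f9* at 24186476 to 24193568 and *Il1rn* at 24336853 to 24351494 on the plus strand, and *Il1a* at 129299610 to 129309972 and *Il1b* at 129364570 to 129371139 on the minus strand. *Il1a* and *Il1b* were 54597 bases apart and had opposite signs in macrophage-like cells in CPM (both negative without scaling). *Casp1* (5298517 to 5307265) and *Il18* (50554827 to 50581840) lay on chromosome 9, *Il18bp* on chromosome 7 (102014885 to 102018690), *Il1r2* on chromosome 1 (40074079 to 40125231) and *Nlrp3* on chromosome 11 (59541568 to 59566956).

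Promoters of 300 bases, 250 before to 50 after a transcript start, were taken from RefSeq for build GRCm38.p6, and 12 matched the 9 members. Those of *Il1a* and *Il1b*, neighbours with opposite signs in CPM, and of *Il1rn* and *Nlrp3*, higher together in 7 of 7 subclusters in CPM (5 and 6 of 7 without scaling), are printed 5′ to 3′ on the gene strand. *Il1rn* had 3 promoters and *Nlrp3* had 2, and the most upstream is shown for each. Capitals mark matches on either strand to TATAAA (core promoter box, in 13.6% of 32841 promoters), TGANTCA (AP-1, 7.81%), TTGCNNAA (C/EBP, 10.8%) or GGGANNTTC (NF-kB, 3.94%), of which none overlapped another. *Il1a* lies at chr2:129309923-129310222, *Il1b* at chr2:129371090-129371389, *Il1rn* at chr2:24336610-24336909 and *Nlrp3* at chr11:59541319-59541618. Of those shown, *Il1a* holds TATAAA and TGANTCA, *Il1b* TATAAA, *Il1rn* TGANTCA and *Nlrp3* none of the 4. A promoter of *Il1rn* that is not shown, at chr2:24345121-24345420, holds TATAAA.
Il1a: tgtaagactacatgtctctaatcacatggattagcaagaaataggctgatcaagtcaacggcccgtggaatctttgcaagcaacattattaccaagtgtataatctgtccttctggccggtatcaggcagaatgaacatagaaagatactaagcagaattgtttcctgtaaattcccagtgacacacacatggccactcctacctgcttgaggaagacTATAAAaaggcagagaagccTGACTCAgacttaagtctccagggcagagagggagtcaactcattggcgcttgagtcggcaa
Il1b: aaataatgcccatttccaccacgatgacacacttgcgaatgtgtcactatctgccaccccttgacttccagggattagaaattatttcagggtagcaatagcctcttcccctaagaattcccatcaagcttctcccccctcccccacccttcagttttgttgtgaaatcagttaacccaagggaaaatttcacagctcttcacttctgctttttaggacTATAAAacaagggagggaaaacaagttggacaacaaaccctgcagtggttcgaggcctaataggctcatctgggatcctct
Il1rn: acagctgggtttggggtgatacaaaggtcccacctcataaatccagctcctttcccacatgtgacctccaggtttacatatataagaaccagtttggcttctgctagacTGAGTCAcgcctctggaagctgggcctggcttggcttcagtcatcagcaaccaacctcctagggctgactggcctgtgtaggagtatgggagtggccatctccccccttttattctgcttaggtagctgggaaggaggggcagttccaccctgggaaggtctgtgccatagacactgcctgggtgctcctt
Nlrp3: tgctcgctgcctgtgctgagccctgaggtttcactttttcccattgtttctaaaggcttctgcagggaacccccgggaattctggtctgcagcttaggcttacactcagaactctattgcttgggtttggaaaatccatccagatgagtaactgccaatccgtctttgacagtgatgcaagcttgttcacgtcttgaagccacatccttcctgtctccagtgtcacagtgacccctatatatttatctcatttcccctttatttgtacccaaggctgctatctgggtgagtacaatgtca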

How the data were processed

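BD Rhapsody whole-transcriptome UMI counts per gene and cell, made and deposited by the authors with the BD Rhapsody WTA Analysis Pipeline on build GRCm38 with GENCODE M19 genes, were used with the deposited Sample Tag read counts. A cell was assigned to a group with at least 10 tag reads, at least 75% of them from 1 tag; 1580 putative cells held a mixture of both tags and 186 fell short of the read limit. Cells with 150 to 5000 genes and at most 20% mitochondrial UMIs were kept (5078 control, 4833 telmisartan-treated). Scrublet's own threshold marked 0 doublets, so the 942 cells with the highest scores (9.51%, as predicted from the split-tag share) were removed. Clustering used Seurat 5.3.0 on R 4.3.3 with 2000 variable genes, 30 principal components and resolution 0.5 (0.45 within macrophage-like cells). Names came from fixed markers, and rebuilt clusters may differ from those of the study.

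UMIs were summed per group and population with Python 3.11.15, numpy 2.4.6, pandas 2.3.3 and scipy 1.17.1, with Scrublet run in scanpy 1.11.5. Intervals were exact Poisson for levels, Clopper-Pearson for shares, conditional binomial for log2 differences and ratios, and a log-odds normal interval for changes in UMI ratios. TMM factors of edgeR 4.0.16 were an alternative. Where UMIs were 0, limits used 3 counts. Genes with at least 100 UMIs over both groups were compared, and a difference was counted past 1.5-fold.

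Named were all 9 members in every class, pathway genes past 1.5-fold with at least 200 UMIs and the most abundant receptor, adaptor and caspase, and up to 3 genes most like each member among genes with at least 500 UMIs. The members and lists were chosen with earlier results of these data known. The ratio step was checked on simulated data for macrophage-like cells with 11073 genes. All 200 changed genes had the right sign, and 95.5% of changed and 95.4% of other genes lay within their interval. The simulated sums were Poisson draws, the model behind the interval, so these shares check the arithmetic only. Clumping of UMIs within cells and differences between pools were not simulated.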

Additional observations from a re-analysis of the deposited data

Results flagged for a closer look

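The log2 difference of *Il1b* had opposite signs between cell classes, at 0.36 in macrophage-like and 0.34 in dendritic-like cells against -0.64 in neutrophil-like cells. The difference between the classes was not tested, since each group was 1 pool, and the neutrophil-like value rests on 48 control and 24 telmisartan-treated cells. The 6 neutrophil markers of these cells also summed lower with telmisartan, at 17215.5 CPM in control and 9224 CPM in telmisartan-treated cells. The part of that difference in the *Il1b* value was not tested. In macrophage-like cells the value was -0.05 without scaling to depth, which shifts all genes alike, and 0.40 relative to the median of all genes both with and without it.

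Cells left out for over 20% mitochondrial UMIs also showed differences between the groups. There were 3586 such control cells and 5373 telmisartan-treated ones, with medians of 946 and 1006 UMIs. *Il1rn* stood at 321 CPM in control and 432 CPM in telmisartan-treated cells (log2 0.43) and *Nlrp3* at 238 and 327 CPM (0.46). *Il1f9* stood at 0.878 and 4.72 CPM (2.43, interval 0.94 to 4.38, from 4 and 33 UMIs). *Il1b* in the same cells was 1488 and 1414 CPM (-0.07). These cells were not assigned to cell classes and entered no comparison above. Neither the part of cell mix in these values nor the difference from kept cells was tested.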

How the results depend on the processing

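No paired analysis was possible because each group was 1 pool of mice with no replicate. Of the members with at least 100 UMIs in macrophage-like cells, the count past the limit higher with telmisartan was 2. It was 0 at 2-fold, a limit for which the share of all genes is not given. It was 1 with a tag share of at least 90%, without doublet removal, at resolution 0.3, with TMM factors, after thinning, without the macrophage-like cluster of the lowest median UMI count, with subclusters weighted to the control shares, and after adding the dendritic-like cluster in which *H2-Eb1* was highest. It was 0 on the ln scale and 0 without scaling. The count lower was 0, and it was 2 without scaling (*Il1a* and *Il18bp*) and 1 with weighted shares (*Il1a*). The cause of these changes was not tested. Without scaling, which shifts all genes alike, 91.2% of the 11073 genes compared were lower, with a median log2 of -0.45. The share of all genes past the limit is not given for these settings, so these counts cannot be set against it.

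Over 15 alternatives, *Il1a*, *Il1rn*, *Il1r2*, *Il1f9* and *Nlrp3* kept their sign in all 15, and *Il1b*, *Il18*, *Il18bp* and *Casp1* in 14. The *Il1f9* values rest on 16 control and 27 telmisartan-treated UMIs in macrophage-like cells, too few to compare. *Nlrp3* ranged from 0.45 to 0.92 and *Il1rn* from 0.14 to 0.58. Directions within subclusters were also computed under 4 further scales, chosen after seeing the data. With 1 pool per group, differences between mice and between pools cannot be told apart from treatment, and the lower depth with telmisartan limits genes of few UMIs such as *Il18*, *Il18bp* and *Il1f9*.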

Other observations

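Levels of IL-18 receptor genes were higher in T-like than in macrophage-like cells. In T-like cells *Il18r1*, the ligand-binding chain, stood at 155 CPM in control and 225 CPM in telmisartan-treated cells, and *Il18rap*, the accessory chain, at 110 and 168 CPM, whereas macrophage-like cells had 15 and 12 *Il18r1* UMIs in all and 9.36 and 6.56 CPM of *Il18rap*. *Il1rl1* stood at 45.7 and 19.9 CPM in T-like cells, from 20 and 9 UMIs.

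*Il1rap*, the accessory chain of the IL-1 receptor, was higher in neutrophil-like than in macrophage-like cells, at 756 and 339 CPM against 21.7 and 16.2 CPM. *Il18rap* in neutrophil-like cells stood at 238 and 148 CPM, from 23 and 7 UMIs.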
